A study of Mus musculus with 8 samples.

Results

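Il10, Il10ra, Il10rb, Tgfbi, Tgfbr1, Tgfbr2, Socs3 and Stat3 were followed in single-cell RNA sequencing of CD45+ wound leukocytes from streptozotocin (STZ)-induced diabetic and control C57BL/6J mice. These 8 genes were taken by name from the 21755 genes listed in any of the 8 count tables, as the ligand, receptors and response genes of interleukin-10 (IL-10) and transforming growth factor beta (TGF-beta). Each library held the CD45+ cells of 1 day (1, 3, 5 or 7) and 1 arm, pooled from 5 male mice with full-thickness skin wounds of 5 mm, so that 4 diabetic libraries (D1, D3, D5, D7) faced 4 control libraries (C1, C3, C5, C7). The diabetic mice had received 120 mg/kg STZ at 4 weeks of age and were used when blood glucose reached 16.5 mmol/L. STZ destroys pancreatic beta cells, and this model carries no transgene. Since a group on a given day was 1 library, no test of a single day was possible. P-values between arms and over days below are set against how far the difference between the arms varied from day to day. A test over days thus takes the control and the diabetic library of a day as its replicates. P-values for a difference in slope over days are set against the spread of libraries around straight lines.

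IL-10 is a cytokine that restrains inflammatory gene expression in myeloid cells. It binds a receptor built from a ligand-binding chain (Il10ra) and a chain shared with other cytokines (Il10rb), whose Janus kinases phosphorylate STAT3. STAT3 then switches on its target genes, among them Socs3, which encodes an inhibitor of signalling by IL-6 and granulocyte colony-stimulating factor. TGF-beta signals through a pair of serine/threonine kinases, of which the type II receptor (Tgfbr2) binds the ligand and then activates the type I receptor (Tgfbr1), and the signal passes to SMAD proteins. Tgfbi encodes a secreted matrix protein named for its induction by TGF-beta. In skin wounds both cytokines are known from the passage from inflammation to repair.

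The count tables carried gene symbols without coordinates, so positions were read from the GRCm38 annotation. Il10 lies at chr1:131019845-131024974 (plus strand), Il10ra at chr9:45253837-45269149 (minus) and Il10rb at chr16:91406164-91425834 (plus). Tgfbi lies at chr13:56609523-56639562 (plus), Tgfbr1 at chr4:47353222-47414931 (plus) and Tgfbr2 at chr9:116084293-116175360 (minus). Socs3 lies at chr11:117966079-117970047 (minus) and Stat3 at chr11:100885098-100939540 (minus). The Il10ra interval overlaps Gm20612 on the opposite strand and Mir7086, Il10rb overlaps Gm21970 on the same strand, and Stat3 overlaps Stat5a on the opposite strand, so reads in those overlaps are uncertain in origin.

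Socs3 was the higher in diabetic libraries on each day in 3 cell classes below and is a textbook STAT3 target, so its promoter is shown. RefSeq promoter windows (GRCm38.p6, 250 bases before to 50 after a start) matched 5 of the 8 members: Tgfbi, Tgfbr1, Tgfbr2, Socs3 and Stat3. The letters TTCNNNGAA, the core of STAT elements, which read the same on both strands, were found in the Socs3 window alone among these members, 154 bases before the start, and are in capitals below. They occur in 8.30% of 32851 promoter windows of that length. The SMAD palindrome GTCTAGAC, found in 0.213% of the windows, was in none of the 5 members' windows. The Socs3 window is chr11:117969317-117969616 on the minus strand, written 5′ to 3′. The start used by RefSeq lies inside the annotated Socs3 interval above.
Socs3: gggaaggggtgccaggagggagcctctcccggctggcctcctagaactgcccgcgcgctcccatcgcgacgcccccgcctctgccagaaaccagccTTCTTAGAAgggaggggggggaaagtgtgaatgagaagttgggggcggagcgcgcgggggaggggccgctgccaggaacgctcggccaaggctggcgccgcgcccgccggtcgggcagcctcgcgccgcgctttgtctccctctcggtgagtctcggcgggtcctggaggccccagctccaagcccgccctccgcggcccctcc

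The 8 libraries held 19236522 to 33842509 UMIs (unique molecular identifiers, one per captured transcript), and 35158 of 38959 cells passed the filters, 3266 to 5436 per library. C5 stood apart. It lost 28.6% of its cells to the filters, against 1.00 to 10.8% elsewhere, its median cell had 8234 UMIs against 2575 to 5219, and 7.96% of its cells were neutrophil-like and 44.3% macrophage-like. The tests between arms and over days were therefore repeated without day 5. Ptprc, which encodes CD45, was at 532 to 922 UMIs per 1000000 UMIs (CPM) in every library, lowest in C5. The 5 keratinocyte markers summed to 0.630 to 12.7 and the 5 erythroid markers to 0.233 to 5.96 CPM, each with up to 3 markers at 0, while the 6 fibroblast markers ranged from 15.8 (C1) to 1583 (C7) and 741 (D7). The part of the fibroblast markers in the day 7 values of the members was not tested.

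Cells were grouped without the 8 members into 20 clusters, of which 19 were named from marker genes. Neutrophil-like cells were the most numerous (13799), followed by macrophage-like (6244), monocyte-like (5441), dendritic-like (2889), T cell-like cells (2449), and by 549 natural killer (NK) cell-like, 147 mast cell-like, 389 osteoclast-like and 50 fibroblast-like cells. One cluster of 3201 shallow cells, led by Gm26917 and Malat1, stayed unnamed. The makeup of the wound changed with time. Monocyte-like cells went from 30.0% (C1) and 36.1% (D1) to 1.27% (C7) and 6.03% (D7), and macrophage-like cells from 2.02% and 1.62% to 49.1% and 26.4%. In whole-library values a change in cell numbers and a change in RNA per cell cannot be told apart, which is why each member is also given by class.

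All levels are CPM, that is per 1000000 UMIs of the library or class, in the order of days 1, 3, 5 and 7. Over whole libraries Il10 was at 426, 285, 588 and 378 CPM in C1, C3, C5 and C7 and at 604, 555, 361 and 557 CPM in D1, D3, D5 and D7. The diabetic library was the higher on days 1, 3 and 7 and the lower on day 5, and the 2 arms overlapped. The receptor chains differed in their course. Il10ra was at 135, 91.1, 51.4 and 78.2 CPM in control and at 135, 100, 100.5 and 85.1 CPM in diabetic wounds, highest on day 1 in both arms and lowest in C5. Il10rb moved little, with 197, 233, 233 and 257 CPM in control and 201, 245, 237 and 205 CPM in diabetic wounds.

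Downstream of the receptor, Stat3 was at 311, 517, 287 and 522 CPM in control and at 347, 402, 421 and 586 CPM in diabetic wounds. Socs3 was at 291, 237, 255 and 404 CPM in control and at 337, 310, 255 and 490 CPM in diabetic wounds. Socs3 was higher in the diabetic library on every day, although on day 5 by only 1.00-fold, within counting error. With every library reweighted to the same class mix its log2 difference was 0.22, 0.37, −0.0081 and 0.45. The diabetic and control ranges overlapped for both genes.

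Of the TGF-beta genes, Tgfbr2 was higher in each later control library, with 45.5, 92.4, 131 and 155 CPM, and stood at 45.7, 77.0, 76.0 and 128 CPM in the diabetic ones. Tgfbr1 was at 47.0, 71.0, 103 and 87.9 CPM in control and at 47.3, 92.7, 75.1 and 70.2 CPM in diabetic wounds. The matrix gene Tgfbi went the other way, with 1455, 1318, 837 and 853 CPM in control and 1672, 1220, 1261 and 766 CPM in diabetic wounds. The day 1 libraries of the 2 arms were therefore the lowest for both receptors and the highest for Tgfbi. A member had at least 856 UMIs in every library. Some of these differences still lay within counting error, such as those of Tgfbr1 and Tgfbr2 between the arms on day 1.

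**Figure D1:**
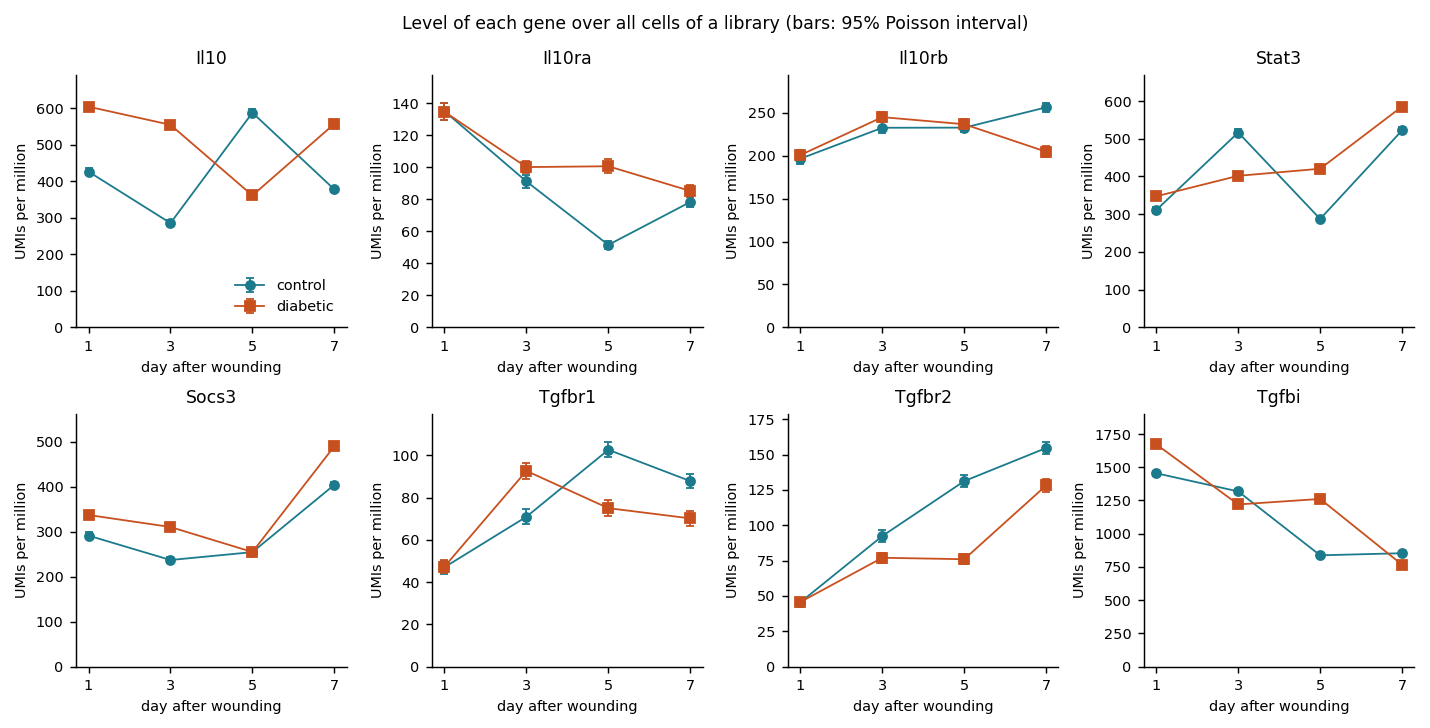
CPM (y axis) of the 8 members in each whole library by day (x axis), with control and diabetic libraries as separate points joined by lines, 1 library a point. Bars are 95% Poisson intervals. Tgfbr2 goes from 45.5 to 155 in control and from 45.7 to 128 in diabetic libraries and Tgfbi from 1455 to 853 and from 1672 to 766, and Il10 is higher in the control library on day 5 alone.

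Each member had its own distribution over classes, given here as the mean CPM ± SD over the libraries in which the class held at least 20 cells. Il10 was highest in monocyte-like cells (875 ± 235, n = 8), next in macrophage-like cells (629 ± 170, n = 8) and low in neutrophil-like (217 ± 153, n = 8), T cell-like (172 ± 71.3, n = 8), dendritic-like (118 ± 73.0, n = 8) and NK cell-like cells (81.9 ± 29.1, n = 6). Monocyte-like exceeded macrophage-like cells in 7 of 8 libraries, by 0.47 ± 0.45 (SD) on the log2 scale. The unnamed cells (427 CPM) lay between macrophage-like and neutrophil-like cells and exceeded the latter in 8 of 8 libraries, by 1.05 ± 0.62. Below neutrophil-like cells no neighbours found together in more than 1 library differed beyond the spread. Among the monocyte-like clusters Il10 was highest in the Ppbp-led one (1064 ± 375, n = 8).

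Il10ra had another order, with neutrophil-like cells (148 ± 45.1, n = 8) above dendritic-like (87.8 ± 24.6, n = 8), monocyte-like (81.5 ± 8.0, n = 8), macrophage-like (68.6 ± 16.4, n = 8) and T cell-like cells (44.4 ± 10.6, n = 8). The unnamed cells (167 ± 63.8, n = 8) did not differ from the neutrophil-like ones beyond the spread. Of the neighbouring pairs in this order only NK cell-like and T cell-like cells differed by more than their spread (0.48 ± 0.46 on the log2 scale, n = 6). Il10rb was also highest in neutrophil-like cells (331 ± 47.1, n = 8), above the next class, the unnamed cells (244 ± 60.4), in 8 of 8 libraries. It was at 238 ± 61.0 in macrophage-like and 208 ± 31.1 in monocyte-like cells and at 94.2 ± 27.3 in T cell-like cells. Both chains of the receptor thus had their highest named class in neutrophil-like cells, in which its ligand was low. For Il10ra the next named class, mast cell-like cells (137 ± 105, n = 4), did not differ from them beyond the spread.

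Stat3 was highest in NK cell-like cells (1265 ± 234, n = 6), which exceeded T cell-like cells (703 ± 163, n = 8) in 6 of 6 libraries. Dendritic-like cells followed (572 ± 77.9, n = 8), and monocyte-like (352 ± 82.9) and neutrophil-like cells (342 ± 97.9) could not be separated. Socs3 was flatter. It was at 366 ± 125 in macrophage-like, 362 ± 79.7 in monocyte-like, 313 ± 88.9 in neutrophil-like, 253 ± 84.9 in dendritic-like and 197 ± 60.4 CPM in T cell-like cells (n = 8 each), and of the neighbours in its order dendritic-like and T cell-like cells alone differed beyond the spread. The 22 fibroblast-like cells of C7, the only library with at least 20 of them, had Socs3 at 884 CPM.

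Tgfbi was highest in monocyte-like cells (2105 ± 462, n = 8), above macrophage-like (1343 ± 456), dendritic-like (856 ± 139) and neutrophil-like cells (665 ± 167), and lowest in NK cell-like cells (137 ± 32.9, n = 6). Within the monocyte-like clusters the one led by Vcan and Chil3 had the most Tgfbi (2805 ± 433, n = 7). Tgfbr2, by contrast, was high in lymphoid cells. It was at 215 ± 46.3 in NK cell-like (n = 6) and 212 ± 27.2 in T cell-like cells (n = 8), the latter above macrophage-like cells (144 ± 19.9) in 8 of 8 libraries, and at 59.9 ± 25.3 in neutrophil-like, 58.1 ± 13.8 in monocyte-like and 50.9 ± 18 in dendritic-like cells. The fibroblast-like cells of C7 had 536 CPM. Tgfbr1 had its highest means in mast cell-like (178 ± 84.6, n = 4) and osteoclast-like cells (115 ± 22.9, n = 4), neither beyond the spread from the next class. It was low in NK cell-like (34.9 ± 20.4, n = 6), dendritic-like (36.2 ± 13.2) and T cell-like cells (39.6 ± 13.9). Macrophage-like (89.6 ± 31.1), neutrophil-like (79.8 ± 21.9) and monocyte-like cells (78.0 ± 24.3) could not be separated.

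**Figure D2:**
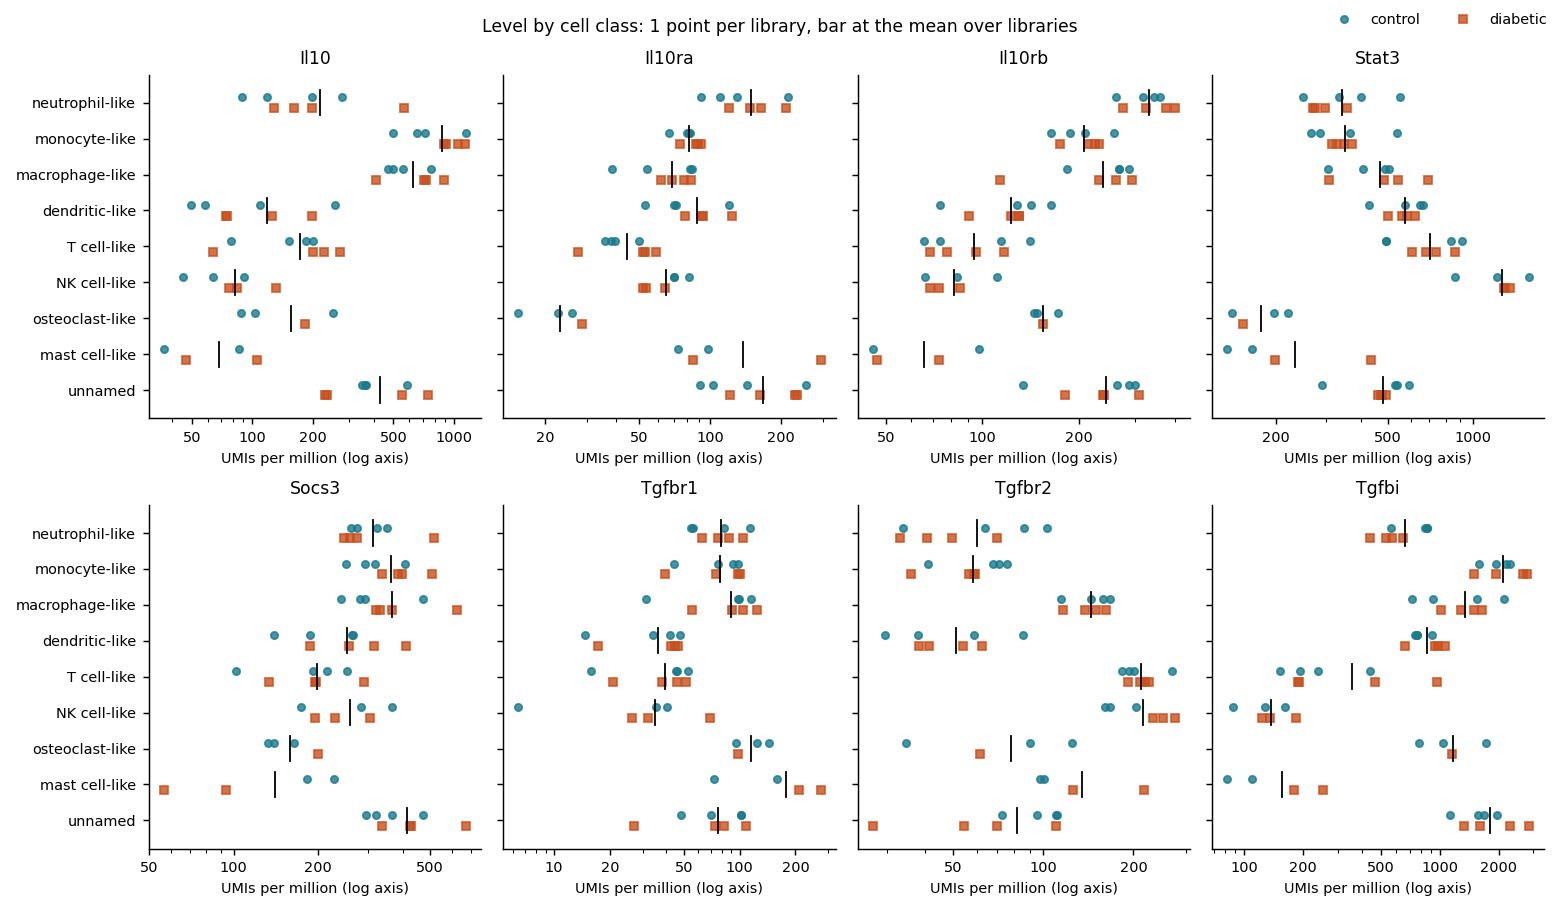
CPM (x axis, log scale) of each member by cell class (y axis), 1 point for each library with at least 20 cells of the class, control and diabetic apart, with a bar at the mean. Il10 and Tgfbi peak in monocyte-like cells (means 875 and 2105), Il10rb in neutrophil-like cells (331) and Stat3 in NK cell-like cells (1265).

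Because the classes changed in size, the cells that supplied a transcript changed too. Monocyte-like cells held 84.5% (C1) and 87.0% (D1) of all Il10 UMIs on day 1 and 2.8% (C7) and 14.0% (D7) on day 7, when macrophage-like cells held 76.5% and 54.9%. On day 5 the arms drew Il10 from different cells, since macrophage-like cells gave 72.0% of it in C5 and monocyte-like cells 66.2% in D5. Tgfbi followed the same course, from 78.5% (C1) and 79.6% (D1) in monocyte-like cells on day 1 to 62.4% (C7) and 45.0% (D7) in macrophage-like cells on day 7, and the osteoclast-like cells of C5 held 25% of its UMIs in that library. T cell-like cells gave 29.8% of the Tgfbr2 UMIs in D5 and 5.3% in C5.

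The first question of the design is whether a member differs between diabetic and control wounds when days are compared like with like. No member passed an adjusted p of 0.05 in edgeR's quasi-likelihood test with day as a factor, over whole libraries or in any of the 5 classes large enough to be tested (8 of 8 members tested in each). That background was itself low: 0% of 12905 genes in all cells, 0% of 9554 in neutrophil-like, 0% of 9633 in monocyte-like, 0.0198% of 10103 in macrophage-like, 0.0109% of 9207 in dendritic-like and 0% of 8216 in T cell-like cells. At an unadjusted p under 0.05 the test found 0 members in all cells and in T cell-like cells, 2 each in neutrophil-like and monocyte-like cells and 1 each in macrophage-like and dendritic-like cells, beside 1458, 251, 911, 819, 914 and 557 genes in all in the same order of classes. DESeq2 called 0 members in each of the 6 comparisons, and 80 genes in all cells. Over these 48 tests of a member, the log2 differences ranged from −0.39 (Tgfbr2 in neutrophil-like cells) to 0.62 (Il10 in neutrophil-like cells), and the smallest edgeR adjusted p was 0.41 (Socs3 in monocyte-like cells).

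Socs3 was higher in the diabetic library on each day in monocyte-like, macrophage-like and dendritic-like cells. In monocyte-like cells it was at 318, 250, 293 and 408 CPM in control and 396, 384, 337 and 507 CPM in diabetic wounds, and the diabetic library was higher on 4 of 4 days, each time beyond counting error. The difference was 0.39 ± 0.12 on the log2 scale (SE), with an unadjusted p of 0.0075 and an adjusted p of 0.41 in edgeR. In macrophage-like cells Socs3 was at 242, 283, 293 and 472 CPM in control and 331, 365, 320 and 625 CPM in diabetic wounds, again higher on 4 of 4 days (log2 0.32 ± 0.11, edgeR adjusted p 0.46). Dendritic-like cells gave 264, 139, 186 and 265 CPM against 317, 258, 187 and 409 CPM, with ratios of 1.20, 1.85, 1.00 and 1.54 (log2 0.43 ± 0.15, edgeR adjusted p 0.73). The ranges of the arms overlapped in all 3 classes. In neutrophil-like cells the ratios went both ways, from 0.796 on day 5 to 1.46 on day 7, as they did in T cell-like cells, from 0.698 on day 5 to 1.90 on day 3. The mast cell-like cells, with enough cells in both arms on days 1 and 3 only, were lower in the diabetic library on both (0.309 and 0.414), on 6 to 25 UMIs.

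The classes are mixtures of clusters, and on days 3 and 5 the monocyte-like cells of the arms were not the same mixture. On day 3 the Vcan-led cluster made up 59.5% of them in C3, while the Ppbp-led cluster made up 49.2% in D3, and on day 5 the Ppbp-led cluster made up 59.1% in C5 and the Vcan-led cluster 55.0% in D5. Within single clusters the diabetic Socs3 value was the higher in 8 of 10 cluster and day pairs of the monocyte-like, 8 of 11 of the macrophage-like and 7 of 8 of the dendritic-like cells. The Vcan-led cluster had Socs3 at 365, 205 and 192 CPM in C1, C3 and C5 and at 439, 419 and 335 CPM in D1, D3 and D5.

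Il10, the ligand, differed on single days, and not in 1 direction. Over whole libraries its diabetic to control ratio was 1.42 on day 1, 1.94 on day 3 (95% interval for counting error 1.88 to 2.0), 0.614 on day 5 and 1.48 on day 7. With every library reweighted to the same class mix, the log2 differences were 0.26, 0.84, −0.37 and 0.73. In monocyte-like cells Il10 was at 718, 496, 1148 and 656 CPM in control and 1048, 1130, 895 and 911 CPM in diabetic wounds, highest of all in C5, whose value rests on 115 cells. The test gave 0.49 ± 0.21 on the log2 scale (unadjusted p 0.040, edgeR adjusted p 0.57), and 0.77 with day 5 left out (edgeR adjusted p 0.35). When each cell was instead named singly from its highest marker score, the Il10 difference of day 5 turned to 0.20 in monocyte-like and 0.29 in macrophage-like cells on the log2 scale. Within the Vcan-led cluster the diabetic values on days 1 and 3 were 809 and 737 CPM against 377 and 349 CPM, and in the Ppbp-led cluster 1291 and 1383 CPM against 889 and 566 CPM.

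In macrophage-like cells Il10 was at 471, 558, 767 and 498 CPM in control and 409, 726, 708 and 896 CPM in diabetic wounds, higher in diabetic wounds on days 3 and 7 and lower on days 1 and 5. The day 1 ratio (0.868) was within counting error. On day 7 both arms drew these cells mostly from the Igf1-led cluster (91.3% in C7, 83.0% in D7), in which Il10 was at 494 and 909 CPM. Neutrophil-like cells had 118, 89.1, 198 and 277 CPM in control and 161, 198, 127 and 566 CPM in diabetic wounds (log2 0.62 ± 0.24, unadjusted p 0.027, edgeR adjusted p 0.48). Within single neutrophil-like clusters the diabetic value was higher in 14 of 15 pairs. Dendritic-like cells went from 49.6, 58.1, 255 and 109 CPM to 74.0, 126, 74.6 and 197 CPM, with the C5 value the highest of the 8.

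Among the receptor chains, Il10ra was higher in the diabetic dendritic-like cells on 4 of 4 days, beyond counting error on 2 of them (ratios 1.02, 1.09, 1.73 and 1.32, log2 0.32 ± 0.16, edgeR adjusted p 0.83). Il10rb was higher in the diabetic neutrophil-like cells on 4 of 4 days by 1.03- to 1.16-fold, beyond counting error on 1 of them. The whole-library Il10ra ratio on day 5 was 1.95, and with the same class mix the log2 difference of that day was 0.46. Stat3 was higher in the diabetic macrophage-like cells on 4 of 4 days (485, 408, 307 and 502 CPM against 692, 484, 309 and 540 CPM, log2 0.20 ± 0.12, edgeR adjusted p 0.65). In neutrophil-like cells it was at 550 CPM in C3 and 299 CPM in D3, a ratio of 0.543, and between 250 and 400 CPM in the other 6 libraries.

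Tgfbr2 was lower in diabetic neutrophil-like and monocyte-like cells on each day, with no call. Neutrophil-like cells had 34.0, 63.7, 86.2 and 102 CPM in control and 33.1, 49.3, 40.8 and 69.9 CPM in diabetic wounds, lower in the diabetic library on 4 of 4 days and in 11 of 15 cluster and day pairs (log2 −0.39 ± 0.17, unadjusted p 0.041, edgeR adjusted p 0.51). Monocyte-like cells were lower on 4 of 4 days too, by ratios of 0.782 to 0.879, of which 1 was beyond counting error. In T cell-like cells, which had the most of this receptor among the tested classes, the values were 269, 183, 193 and 201 CPM in control and 225, 219, 210 and 192 CPM in diabetic wounds (log2 −0.02, 95% interval −0.41 to 0.37).

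Tgfbi in neutrophil-like cells was at 562, 859, 842 and 862 CPM in control and 533, 572, 439 and 648 CPM in diabetic wounds, lower on 4 of 4 days (log2 −0.38 ± 0.21, edgeR adjusted p 0.57). Within single clusters it was lower in 9 of 15 pairs, and the Ighg2b-led cluster made up 53.1% of these cells in C5. In monocyte-like cells Tgfbi had 2275, 2184, 1587 and 1936 CPM in control and 2652, 1940, 2780 and 1486 CPM in diabetic wounds, higher on days 1 and 5 and lower on days 3 and 7. T cell-like cells showed the widest single-day ratio of a member in the tested classes, 966 CPM in D1 against 193 CPM in C1, on 112 and 102 cells. The difference over all days was 0.53 on the log2 scale there and −0.058 without day 1. The part of RNA from other cells in these T cell-like values was not tested. Tgfbr1 showed no tested class in which all 4 days went the same way.

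**Figure D3:**
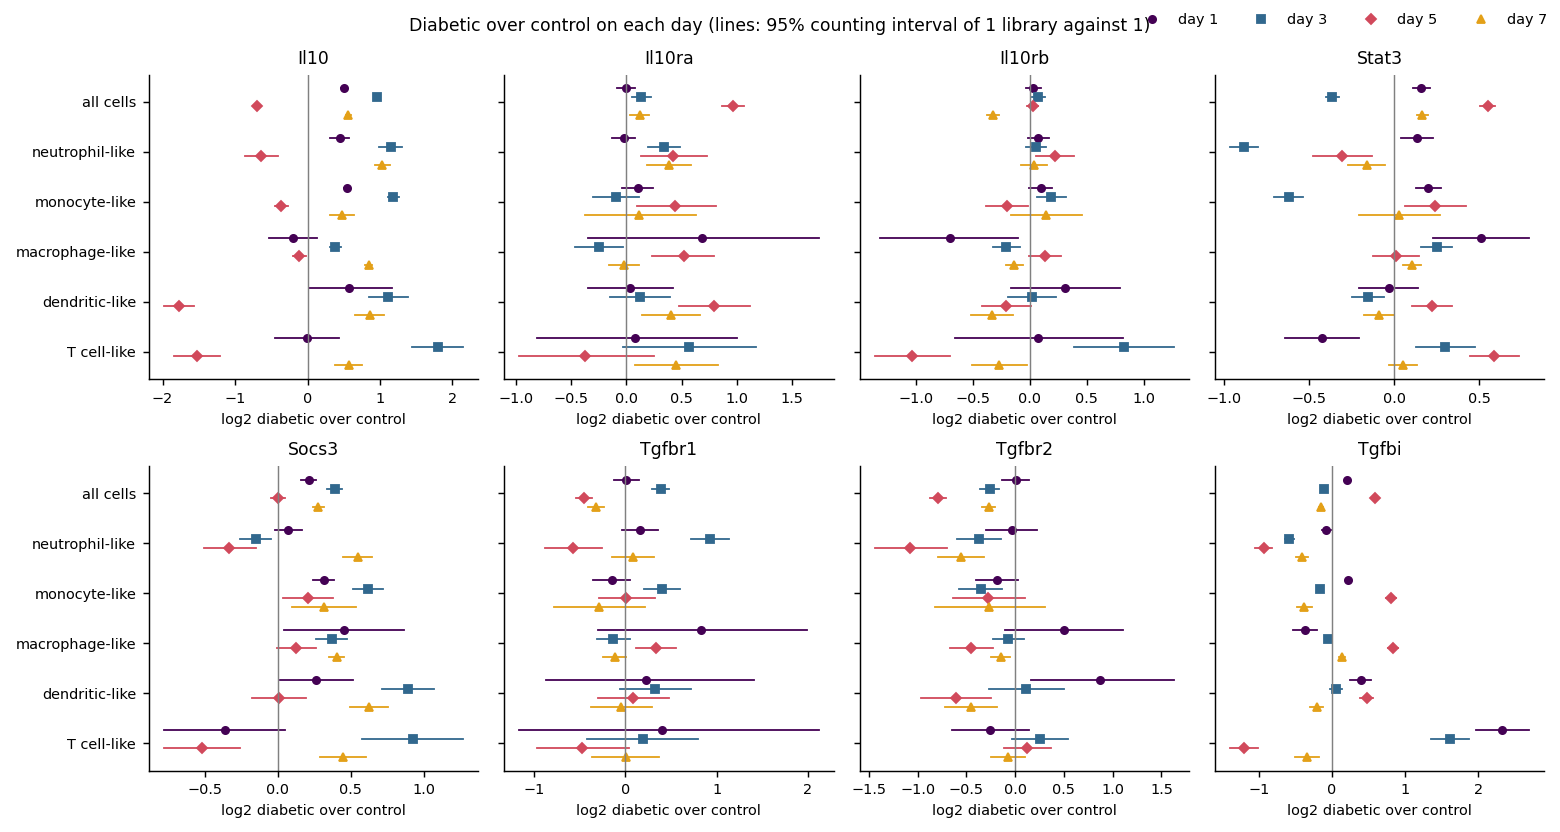
Log2 of the diabetic over control ratio (x axis) of the 8 members in whole libraries and the 5 tested classes (y axis), 1 symbol a day, with 95% intervals for counting error only, 1 library an arm. As ratios, Socs3 lies above 1 on all days in monocyte-like (1.15 to 1.53) and macrophage-like cells (1.09 to 1.37). Il10 lies below 1 on day 5 in both (0.780 and 0.924) and on day 1 in macrophage-like cells (0.868).

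Because C5 stood apart, the comparison was repeated without day 5. The log2 difference of Il10 then went from 0.39 to 0.68 in all cells, from 0.24 to 0.40 in macrophage-like, from 0.62 to 0.85 in neutrophil-like and from 0.17 to 0.86 in dendritic-like cells, with edgeR adjusted p-values of 0.58, 0.59, 0.49 and 0.11. Those of Tgfbi went from 0.14 to −0.08 in monocyte-like and from 0.13 to −0.08 in macrophage-like cells. That of Il10ra in dendritic-like cells went from 0.32 to 0.16. Socs3 stood at 0.45, 0.41 and 0.57 in monocyte-like, macrophage-like and dendritic-like cells without day 5, and Tgfbr2 and Tgfbi at −0.34 and −0.38 in neutrophil-like cells (edgeR adjusted p 0.35 to 0.69). No member passed the threshold without day 5. The difference in the slope over days between the arms was called for 0 of 8 members and 0% of 12905 genes in edgeR, with 0 members and 217 genes at an unadjusted p under 0.05, and for 0 members and 6 genes by DESeq2.

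The second question is how the members move along healing. Here the scaling between libraries matters. Scaled to total UMIs, the median gene of neutrophil-like cells was shifted by 0.58, 0.69 and 1.05 on the log2 scale from day 1 to days 3, 5 and 7, and that of all cells by 0.39, 0.50 and 0.59, whereas under edgeR's trimmed mean scaling these shifts were 0.06, 0.07 and 0.08 and 0.04, 0.08 and 0.10. In the other tested classes they were below 0.1 either way. Changes over days are therefore given relative to the trimmed mean, and with the other scaling where it matters. In whole libraries 0 of 8 members and 0% of 12905 genes were called over days by edgeR, with 4 members (Il10ra, Tgfbi, Tgfbr2 and Socs3) and 2628 genes at an unadjusted p under 0.05, and 4 members and 1884 genes by DESeq2. Il10, Il10rb, Tgfbr1 and Stat3 had edgeR adjusted p-values of 0.46 to 0.75. Without day 5 edgeR called 3 members, Il10ra, Tgfbi and Tgfbr2 (adjusted p 0.0059, 0.0076 and 0.0074), and 2345 genes.

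Il10ra fell with time in neutrophil-like cells. It was at 214, 130, 110 and 91.7 CPM in control and 210, 164, 148 and 120 CPM in diabetic wounds, highest on day 1 and lowest on day 7 in both arms. Relative to day 1 it stood at −1.10, −1.37 and −2.02 on the log2 scale on days 3, 5 and 7 (edgeR adjusted p 0.0076), or at −0.55, −0.73 and −1.02 with libraries scaled to total UMIs (edgeR adjusted p 0.039). It was the only member called there, in a class in which 26.2% of the 9554 genes were called, and 2 members and 4029 genes had an unadjusted p under 0.05. The clusters behind the class changed, with the Il23a-led cluster the largest in C1 (42.9%) and the Ighg2b-led cluster at 89.6% in C7 and 53.2% in D7. Il10ra was lower on day 7 than on day 1 in 7 of 7 pairs of cluster and arm with enough cells. The Ngp-led cluster, 25.7% of the class in C1 and 36.5% in D1, had 1 cell in C7 and 1 in D7 and gave no pair. Leaving out day 1 or day 7 ended the call (edgeR adjusted p 0.17 and 0.16), and the genes called in this class went from 2505 to 31 and 68. Without day 5 it was kept (adjusted p 4.6e-04), Il10 and Il10rb were called as well and the genes called were 4639. Between the scalings the direction relative to day 1 differed on at least 1 day for Il10, Il10rb, Tgfbi, Tgfbr1, Socs3 and Stat3 in neutrophil-like cells, for Il10rb and Stat3 in all cells and for Il10ra in monocyte-like cells, so no direction over days is given for these. Under total-UMI scaling Il10 (edgeR adjusted p 0.018) and Tgfbr2 (0.038) were called in neutrophil-like cells as well, together with 34.2% of genes called.

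Socs3 rose in macrophage-like cells. The control values of 242, 283, 293 and 472 CPM and the diabetic ones of 331, 365, 320 and 625 CPM gave log2 changes of 0.21, 0.15 and 0.96 on days 3, 5 and 7 (edgeR adjusted p 0.025), so that most of the rise lay at day 7. It was the only member called in this class, in which 1.73% of 10103 genes were called, and leaving out day 1 or day 7 ended the call (edgeR adjusted p 0.098 and 0.92), with 22 and 109 genes called in place of 175. Without day 5 it was kept (adjusted p 0.013), Tgfbi was called as well (0.028) and the genes called were 253. The Ms4a7-led cluster made up 41.6 to 70.8% of these cells before day 7 and the Igf1-led cluster 91.3% and 83.0% of them on day 7. Within the Ms4a7-led cluster Socs3 was at 281, 290, 299 and 406 CPM in control and 252, 396, 325 and 715 CPM in diabetic wounds. Its day 7 values rest on 39 cells in C7 and 41 in D7. Day 7 was above day 1 in 4 of 4 pairs of cluster and arm with enough cells. The Igf1-led cluster, with 10 cells in C1 and 15 in D1, gave no pair, so the part of the change to that cluster was not tested.

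**Figure D4:**
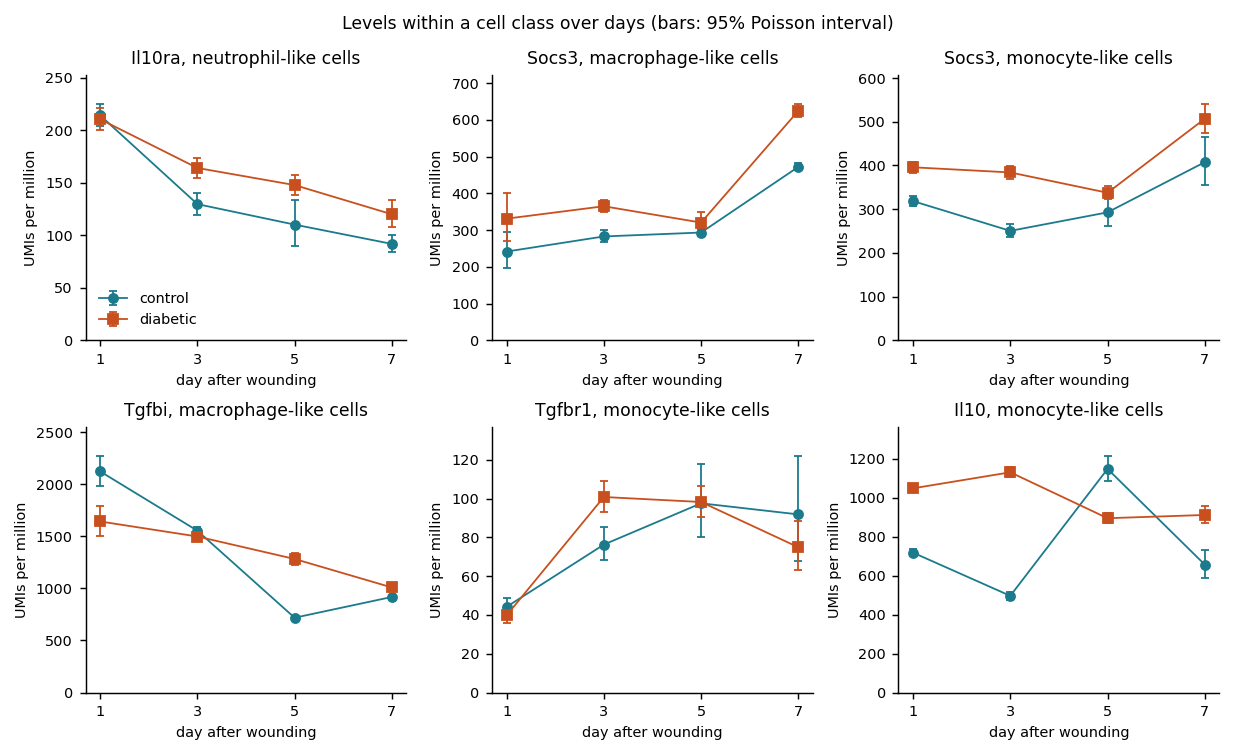
CPM (y axis) by day (x axis) of Il10ra in neutrophil-like, Socs3 and Tgfbi in macrophage-like, and Socs3, Tgfbr1 and Il10 in monocyte-like cells, control and diabetic libraries as separate lines, 1 library a point with its 95% Poisson interval. Il10ra falls from 214 to 91.7 in control and from 210 to 120 in diabetic neutrophil-like cells, and Socs3 ends at 472 and 625 in macrophage-like cells.

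The other 7 members did not pass this test in macrophage-like cells, although with Socs3 6 members had an unadjusted p under 0.05 in edgeR, beside 1445 of 10103 genes. Stat3 was at −0.36, −0.88 and −0.14 relative to day 1 (edgeR adjusted p 0.070), Tgfbr1 at 1.42, 1.42 and 1.21 (adjusted p 0.081) and Tgfbi at −0.28, −0.91 and −0.96 (adjusted p 0.093). Il10, Il10ra, Il10rb and Tgfbr2 stood at 0.64, 0.80, 0.89 and 0.23 on day 7 (adjusted p 0.31, 0.44, 0.11 and 0.88). Day 1 is the thin point of this class, with 89 cells in C1 and 77 in D1. In monocyte-like cells 0 of 8 members were called over days by edgeR beside 1.58% of 9633 genes, with 3 members (Tgfbr1, Tgfbr2 and Socs3) and 1435 genes at an unadjusted p under 0.05 and 1 member called by DESeq2. Tgfbr2 stood at 0.69 and Socs3 at 0.31 on day 7 (edgeR adjusted p 0.15 and 0.22), and the adjusted p was 0.44 to 0.85 for Il10, Il10ra, Il10rb, Tgfbi and Stat3. The nearest to a call was Tgfbr1, with 44.2, 76.3, 97.6 and 91.8 CPM in control and 39.8, 101, 98.2 and 74.9 CPM in diabetic wounds, where both day 1 libraries lay below all others (edgeR adjusted p 0.053, or 0.036 scaled to total UMIs). In dendritic-like cells edgeR called 0 members (0.434% of 9207 genes), with 4 members and 1087 genes at an unadjusted p under 0.05, and DESeq2 called 0. The 4 were Il10ra, Il10rb, Tgfbr1 and Socs3, at −0.60, 0.79, 1.53 and 0.18 on day 7 (edgeR adjusted p 0.12 to 0.36), and Il10, Tgfbi, Tgfbr2 and Stat3 had adjusted p-values of 0.48 to 0.60. Without day 5 Il10 and Tgfbr1 were called (edgeR adjusted p 0.019 and 0.049), and the genes called went from 40 to 164. In T cell-like cells edgeR called 0 members (0.0243% of 8216 genes), with Tgfbr1 and 452 genes at an unadjusted p under 0.05, and DESeq2 called 0. Tgfbr1 stood at 1.25 on day 7 (edgeR adjusted p 0.86), and the adjusted p was 0.998 for each of the other members.

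Beyond the 8 members, 9 lists of pathway genes (96 distinct genes, the members among them) were read in the same tests. The lists held the IL-10 receptor chains, the Janus kinase and STAT relay, SOCS inhibitors, other STAT3 cytokines, IL-10-induced macrophage genes, TGF-beta ligands, receptors, SMADs and TGF-beta-induced genes. Between arms 0 of 88 tested genes were called in all cells, with 9 at an unadjusted p under 0.05 in edgeR, beside 1458 of all 12905 genes. In the classes that number was 8 of 78 in neutrophil-like (911 of all 9554 genes), 11 of 78 in monocyte-like (819 of 9633), 19 of 78 in macrophage-like (914 of 10103), 5 of 77 in dendritic-like (557 of 9207) and 3 of 75 in T cell-like cells (251 of 8216). The smallest p of each list fell to Il10ra, Jak2, Socs4, Csf3, Etv3, Ltbp3, Bambi, Smad6 and Itgae, with log2 differences of 0.36, 1.09, 0.43, 0.78, 0.45, −1.36, −0.56, 0.71 and 0.83 and edgeR adjusted p-values of 0.44 to 0.52. The medians of the lists lay between −0.07 (TGF-beta receptors) and 0.36 (IL-10 ligand and receptor chains), beside 0.02 over all genes.

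Jak2 encodes a Janus kinase used by the receptors of interferon gamma, growth hormone and many cytokines, and it was the only list gene called between arms, in macrophage-like cells. It was at 100, 80.1, 75.0 and 97.4 CPM in control and 169, 152, 137 and 217 CPM in diabetic wounds (log2 0.94 ± 0.12, edgeR adjusted p 0.049). The call was lost when day 1 or day 7 was left out (adjusted p 0.15 and 0.34) and under 5 other alternatives (0.051 to 0.57), with log2 values of 0.87 to 0.99 throughout. In monocyte-like cells Jak2 was at 204, 168, 178 and 195 CPM in control and 332, 281, 280 and 312 CPM in diabetic wounds (log2 0.72 ± 0.11, edgeR adjusted p 0.090). Il1rn, the interleukin-1 receptor antagonist and smallest in p among IL-10-induced genes of monocyte-like cells, was at 1765, 827, 1371 and 1192 CPM in control and 2363, 1665, 1732 and 1571 CPM in diabetic wounds (log2 0.56, edgeR adjusted p 0.38). In macrophage-like cells Il1rn was at 942, 864, 680 and 762 CPM in control and 1477, 1108, 1121 and 1364 CPM in diabetic wounds (log2 0.63 ± 0.11, edgeR adjusted p 0.15). Il6 had a log2 difference of 0.93 ± 0.20 in the same cells (edgeR adjusted p 0.22). DESeq2 called both in macrophage-like cells, as did edgeR with no filter on low counts.

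Among the TGF-beta-induced genes, Pmepa1, an inhibitor of SMAD signalling, was called in neutrophil-like, monocyte-like and macrophage-like cells, and in monocyte-like cells went from 31.9 (C1) and 23.2 (D1) to 121 (C7) and 111 CPM (D7), a log2 change of 2.03 on day 7 (edgeR adjusted p 0.0024). In macrophage-like cells Pmepa1 was at 100 (C3) and 82.9 CPM (D3) on day 3 against 12.0 (C1) and 22.7 CPM (D1) on day 1, the latter on 5 and 7 UMIs. Without day 1 none of these 3 calls of Pmepa1 held (edgeR adjusted p 0.11, 0.41 and 0.63).

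Called genes of the other lists went both ways over days. In macrophage-like cells Il6, which encodes a STAT3-activating cytokine, fell from 115 (C1) and 321 (D1) to 14.6 (C3) and 33.4 CPM (D3), a log2 change of −3.12 (edgeR adjusted p 9.2e-04). Fcgr2b, the inhibitory Fc receptor, and Il21r, the interleukin-21 receptor, rose in neutrophil-like, monocyte-like and dendritic-like cells, Fcgr2b by 2.86, 1.56 and 1.51 on day 7. In monocyte-like cells Socs2, another SOCS inhibitor, rose by 2.80 on day 7, on 7 to 78 UMIs a library. Thbs1, which encodes the TGF-beta activator thrombospondin 1, fell by 1.37 on day 3 in the same cells. In all, 7 of 78 list genes were called in monocyte-like cells (1.58% of all genes), 4 of 78 in macrophage-like (1.73%), 2 of 77 in dendritic-like (0.434%) and 0 of 75 in T cell-like cells (0.0243%). The last had 7 list genes at an unadjusted p under 0.05 in edgeR, beside 452 of all 8216 genes. Without day 1 the calls of Il6, Fcgr2b, Il21r, Socs2 and Thbs1 were lost (edgeR adjusted p 0.11 to 0.90).

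In neutrophil-like cells 24 of 78 list genes were called, 11 higher and 13 lower on day 7, beside the 26.2% of all genes. Pmepa1, Il21r, Fcgr2b and Eng, a TGF-beta co-receptor, were among the largest rises, with 3.60, 2.94, 2.86 and 2.48 on day 7. Eng was near the floor, on 3 to 52 UMIs a library. Csf3, which encodes granulocyte colony-stimulating factor, Il27, Acvrl1, a type I receptor of the TGF-beta family, Il1rn and Thbs1 had the largest falls. Csf3 went from 335 (C1) and 274 (D1) to 31.3 (C7) and 108 CPM (D7), and Acvrl1 from 59.0 and 91.0 to 28.1 and 22.9 CPM. Il27 was at 2.87 CPM or less in every library, and it and Il1rn were no longer called with libraries scaled to total UMIs (edgeR adjusted p 0.15 and 0.077). Without day 1 Csf3, Acvrl1 and Eng were no longer called (0.25, 0.65 and 0.32 in edgeR).

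The members did not share 1 pattern over classes and libraries. Across 63 sums of a class in a library, which share libraries, Pearson's r between members ranged from −0.64 (Tgfbr1 and Stat3) to 0.69 (Il10 and Tgfbi), on log2(CPM + 10). Among all genes Il10 was most like F13a1, Ms4a4a and Msr1 (r = 0.90 each), which are genes of monocytes and macrophages. Tgfbi was most like Pid1 (0.90), Ifi207 and Cd180, Il10rb like Tgm2 (0.92), Ninj1 and Tlr2, and Il10ra like Gripap1 (0.81), Ccnl1 and Ppp1r15a. Tgfbr2 was most like Ormdl3 (0.84), Agpat3 and Mxd4, Stat3 like H2-Q6 (0.84), Ifngr1 and Cep120, and Tgfbr1 like Mitf (0.80), Fnip1 and Tpp1. Socs3 had the weakest likeness, with Thbd (0.66), Tcf7l2 and Atp2c1.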

How the data were processed

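CD45+ cells of 5 pooled mice per library were sequenced, and the authors deposited raw counts of UMIs per gene and cell, 1 table a library. Reads had been trimmed with fastp 0.20.1 per the labels and aligned with STAR after barcode extraction with UMI-tools. The labels name mm9, the study's methods an annotation of GRCm38, so coordinates here come from GRCm38 by gene name and no value depends on them. The sources also differ on the droplet or microwell platform. Cells are named by running numbers in every table, so cell barcodes shared between libraries could not be counted. Strand use in counting is not given in the sources used here.

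A cell was kept if it had more than 200 genes and a mitochondrial share of UMIs below 20% (Python 3.11.15, scanpy 1.11.5). They were clustered on 2000 variable genes without the members and pathway genes (10 principal components, 30 neighbours, Leiden resolution 0.8) and named from marker lists, with at least 3 detected markers required. A doublet caller marked 179 cells, 0 of them in C5, and these were kept. Removal of the highest-scoring 5% of each library was an alternative.

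UMIs were summed per library and class (at least 20 cells) and divided by the total UMIs to give CPM. Tests were edgeR 4.0.16 quasi-likelihood tests in R 4.3.3, two-sided, on summed counts with trimmed mean scaling, a filter on low counts, and arm and day as factors. P-values were Benjamini-Hochberg adjusted over all genes tested, with a threshold of 0.05. DESeq2 1.42.0, no filter, other cell filters, other clusterings, no day term and leaving out each day were alternatives, and scaling to total UMIs and the alternatives for single days were chosen after seeing the data. The fits were also tested on simulated data, the outcome of which is not given here. Intervals of single-day ratios (95%) cover counting error only. A difference between classes was called beyond the spread when its mean log2 difference exceeded its SD over libraries. For the same class mix, each class was given 1 weight that held in all libraries.

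The members and gene lists were chosen with earlier results of these data known. By rule all 8 members were reported in each comparison (between arms, those with no steady direction by range), with up to 5 called list genes per direction by fold (or the smallest p where none passed) and the 3 genes most like each member at a mean of at least 10 CPM. The mice of a library were pooled, so the spread between animals was not measured. Some list genes are not reported here, although the counts over the lists include them.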

Additional observations from a re-analysis of the deposited data

Results flagged for a closer look

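Over whole libraries 5 members went one way on one day and the other way on another, both times beyond counting error, with 1 library an arm each time, and these differences between days were not tested. The share of all genes that did the same was not counted, so the 5 are not read as a trait of the members. The diabetic over control ratio of Il10 was 1.94 on day 3 and 0.614 on day 5. That of Tgfbr1 was 1.31 on day 3 and 0.731 on day 5, and that of Stat3 was 0.778 on day 3 and 1.46 on day 5. Tgfbi stood at 1.51 on day 5 and 0.898 on day 7, and Il10rb at 1.05 on day 3 and 0.798 on day 7. Of these pairs 4 include a day 5 ratio, with C5 as the control library, which lost 28.6% of its cells to the filters and held 7.96% neutrophil-like cells. With every library at the same class mix, the log2 difference on day 5 went from −0.69 to −0.37 for Il10, from −0.41 to −0.043 for Tgfbr1, from 0.53 to 0.12 for Stat3 and from 0.59 to 0.50 for Tgfbi. On day 7 it went from −0.31 to −0.031 for Il10rb and from −0.15 to −0.25 for Tgfbi. The part of the depth and the lost cells of C5 was not tested.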

How the results depend on the processing

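Of 1088 member values under alternatives 997 kept their side of the threshold and, between arms or for the slope, their direction. Of the others 37 passed the threshold, 4 no longer did and 50 turned direction. Among 323 values of list genes these counts were 267, 13, 43 and 0. A value over days is a range without a sign, so its direction was not compared in these counts. No paired analysis was possible because each group had 1 library, other than the pairing of arms by day that the day term already gives. The count of members over days became 4 by DESeq2 in all cells. In neutrophil-like cells it became 2 by DESeq2, 2 without a filter and 3 scaled to total UMIs. In monocyte-like cells it became 1 under each of these, and in macrophage-like cells 5 by DESeq2 and 6 without a filter. In dendritic-like and T cell-like cells it became 3 and 1 without a filter. Between arms 1 member was called in monocyte-like cells without a filter. With a day left out the counts over days were 0 to 3 in all cells and in neutrophil-like, 0 to 1 in monocyte-like, 0 to 4 in macrophage-like and 0 to 2 in dendritic-like cells. Genes called in these fits were 0 to 2345, 31 to 4639, 8 to 651, 22 to 319 and 7 to 164 in that order. Over all genes edgeR, DESeq2 and no filter called 0, 80 and 1 genes between arms in all cells, 0, 47 and 163 in neutrophil-like, 0, 43 and 174 in monocyte-like, 2, 53 and 190 in macrophage-like, 1, 14 and 114 in dendritic-like and 0, 1 and 36 in T cell-like cells. Over days they called 0, 1884 and 430, then 2505, 2600 and 3888, 152, 460 and 1078, 175, 490 and 958, 40, 168 and 737, and 2, 59 and 322 in the same order, and 0, 6 and 0 for the slope.

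Some differences between arms turned direction, none of them called, and the cause was not tested. In all cells Il10rb became −0.0053 by DESeq2, −0.030 without a filter and −0.049 scaled to total UMIs, and the Socs3 slope −0.0084 without a filter and −0.0035 scaled to total UMIs. Named singly from marker scores, cells gave −0.015 for Socs3 (neutrophil-like), −0.0099 and −0.032 for Il10ra (monocyte-like and macrophage-like), 0.20 for Il10rb (T cell-like), and 0.20 and 0.29 for Il10 on day 5 (monocyte-like and macrophage-like). Stat3 in monocyte-like cells became 0.0095 without a filter. In dendritic-like cells Il10 became −0.034 without a day term and −0.0094 at resolution 1.6, and Tgfbr1 −0.047 at that resolution. Tgfbr2 in T cell-like cells became 0.0062 at resolution 0.4 and 0.015 scaled to total UMIs.

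With each day left out in turn, log2 differences in all cells ranged from −0.071 to 0.13 for Il10rb, −0.019 to 0.31 for Tgfbi, −0.23 to 0.062 for Tgfbr1 and −0.010 to 0.32 for Stat3. Slopes ranged from −0.23 to 0.00090 for Il10, −0.034 to 0.31 for Il10ra, −0.13 to 0.066 for Il10rb, −0.051 to 0.17 for Tgfbi and −0.058 to 0.015 for Socs3. Neutrophil-like cells gave −0.022 to 0.29 for Socs3 and −0.33 to 0.077 for Stat3. Monocyte-like cells gave −0.077 to 0.31 for Tgfbi, −0.10 to 0.11 for Tgfbr1 and −0.10 to 0.19 for Stat3. Macrophage-like cells gave −0.021 to 0.30 for Il10ra, −0.078 to 0.31 for Tgfbi, −0.015 to 0.21 for Tgfbr1 and −0.22 to 0.024 for Tgfbr2. Dendritic-like cells gave −0.20 to 0.86 for Il10, −0.34 to 0.030 for Tgfbr2 and −0.12 to 0.0073 for Stat3. T cell-like cells gave −0.34 to 0.75 for Il10, −0.49 to 0.16 for Il10rb, −0.058 to 1.14 for Tgfbi, −0.16 to 0.095 for Tgfbr1, −0.10 to 0.061 for Tgfbr2, −0.17 to 0.31 for Socs3 and −0.060 to 0.28 for Stat3.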
